A study of Mus musculus with 4 samples.

Results

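Collagen genes were taken as every row of the deposited gene table whose symbol is Col, a number, a and a number, which gave 44 of 24444 genes. They were followed in 4 RNA-seq libraries from mouse tumours, 3 labelled CT26-shppp2r1a, called knockdown tumours or replicates 1 to 3 here, and 1 labelled CT26-scr, the control. CT26 is a colon carcinoma line of BALB/c mice. The knockdown cells carried a short hairpin RNA against Ppp2r1a, which encodes a scaffold of protein phosphatase 2A, and the control cells carried a scrambled hairpin. Both kinds of tumour were grown in BALB/c mice and taken at about 70 mm3, and the study describes puromycin selection of the transfected cells before use. The study used a pair of hairpins against mouse Ppp2r1a, and the labels do not say which of them a library carries or whether each tumour came from its own mouse. The control is numbered 3 in its description, as is knockdown replicate 3, and the labels do not say whether that number marks a shared batch. The p-values therefore measure only the spread between these libraries. Host and tumour cells are of one species, so collagen transcripts of the carcinoma cells and of the host stroma cannot be told apart.

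Collagens are trimers of alpha chains wound into a triple helix, and each chain is the product of its own gene. Fibrillar collagens, above all types I, III and V, form the banded fibrils of the lamina propria, the submucosa and tumour stroma, and are made mainly by fibroblasts and smooth muscle cells. Type IV collagen is the network of the basement membrane under epithelium, endothelium and muscle, and types XV and XVIII lie in the basement membrane zone. Type VI forms beaded filaments near cells, and the remaining types decorate fibrils, span membranes or anchor the epithelium. The genes were therefore described as 11 fibrillar, 8 basement membrane and 25 other collagen genes.

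Total expected counts were 24726440 to 27910370 for the knockdown tumours and 28950004 for the control. Ppp2r1a stood at 40.2, 29.8 and 22.3 TPM (a length-corrected abundance scaled to one total in every library) in knockdown tumours 1 to 3, compared with 75.1 TPM in the control. The labelled cell type, colon cancer cells, does not by itself describe these libraries: the study describes tumours grown under the skin, yet transcripts of mature intestinal epithelium were abundant, and 12 such marker genes summed to 28076, 54034 and 74437 TPM in knockdown tumours 1 to 3, compared with 80785 TPM in the control. Whether the material holds bowel tissue was not tested, so tumour, here and throughout, is the labels' word, and which tissue the collagen RNA came from was not tested. With 1 control library that side had no replicate error, so the test takes its variation to equal that among knockdown tumours, and an exact permutation of 3 libraries against 1 cannot give a p below 0.25. In bulk RNA, fewer cells of a type and less RNA per cell cannot be told apart.

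Promoter windows, from 250 bases before to 50 after the start site, were found in the RefSeq table of GRCm38.p6 for 35 of the 44 genes. The windows of Col1a2, Col3a1, Col4a2 and Col6a1 are shown as those of abundant fibrillar, basement membrane and type VI genes, whose levels differed between libraries to unequal degrees. They lie at chr6:4505368-4505667 on the plus strand for Col1a2, chr1:45311288-45311587 on the plus strand for Col3a1, chr8:11312555-11312854 on the plus strand for Col4a2 and chr10:76725995-76726294 on the minus strand for Col6a1. Capitals mark 3 short motifs wherever they stand on either strand. The first is the CCAAT box, spelled CCAAT. The next is the GC box, spelled GGGCGG. The last is the TATA box, spelled TATAAA. On the other strand each reads as its reverse complement.
Col1a2: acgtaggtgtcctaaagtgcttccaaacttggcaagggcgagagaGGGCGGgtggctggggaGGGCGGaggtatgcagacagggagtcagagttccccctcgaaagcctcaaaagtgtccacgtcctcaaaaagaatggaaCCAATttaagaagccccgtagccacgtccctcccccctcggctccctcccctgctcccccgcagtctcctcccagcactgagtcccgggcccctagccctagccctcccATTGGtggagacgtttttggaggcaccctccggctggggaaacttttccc
Col3a1: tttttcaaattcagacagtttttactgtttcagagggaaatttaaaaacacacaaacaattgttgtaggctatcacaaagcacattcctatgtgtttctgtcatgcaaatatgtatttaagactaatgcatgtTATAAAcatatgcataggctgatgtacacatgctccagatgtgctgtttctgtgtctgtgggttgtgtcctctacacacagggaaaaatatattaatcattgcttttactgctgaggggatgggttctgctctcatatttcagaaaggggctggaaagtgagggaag
Col4a2: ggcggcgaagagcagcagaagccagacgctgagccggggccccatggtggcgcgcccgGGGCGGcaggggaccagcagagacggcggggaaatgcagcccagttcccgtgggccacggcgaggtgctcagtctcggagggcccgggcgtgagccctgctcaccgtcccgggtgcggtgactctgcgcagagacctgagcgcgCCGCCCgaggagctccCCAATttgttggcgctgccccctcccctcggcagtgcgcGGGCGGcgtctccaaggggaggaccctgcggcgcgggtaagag
Col6a1: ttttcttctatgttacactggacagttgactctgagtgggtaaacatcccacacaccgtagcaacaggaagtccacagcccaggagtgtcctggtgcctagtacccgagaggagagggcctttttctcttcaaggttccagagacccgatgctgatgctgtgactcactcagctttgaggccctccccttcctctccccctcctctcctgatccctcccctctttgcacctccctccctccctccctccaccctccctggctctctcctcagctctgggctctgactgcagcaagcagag

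Of these windows, that of Col1a2 held CCAAT on both strands and GGGCGG, that of Col3a1 held TATAAA, that of Col4a2 held CCAAT and GGGCGG, and that of Col6a1 held none of the 3 motifs. Over the 38 collagen windows, of which some genes have more than 1, CCAAT was present in 34.2% against 37.4% of all 32851 windows, GGGCGG in 60.5% against 35.7%, and TATAAA in 13.2% against 13.6%. A match of letters is a description and not a binding site. Col4a1 and Col4a2 are transcribed in opposite directions from a shared region, and their windows share 78 bases. Their annotated genes overlap by 22 bases at the 5′ ends.

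Collagen genes together took 413, 180 and 77.1 TPM in knockdown tumours 1 to 3, compared with 85.2 TPM in the control. Replicate 1 was thus far above the control, replicate 2 lay above it and replicate 3 lay just below it. Fibrillar genes summed to 244, 101 and 33.7 TPM in the knockdown tumours, with 36.8 TPM in the control, and basement membrane genes to 94.1, 38.8 and 15.6 TPM against 16.4 TPM. The other collagen genes summed to 74.4, 40.0 and 27.8 TPM against 32.0 TPM, a narrower range. The make-up of the group differed with its level. Fibrillar genes made up 59.2%, 56.2% and 43.8% of collagen TPM in knockdown tumours 1 to 3, compared with 43.2% in the control, while the 6 type VI genes made up 12.4%, 15.6% and 26.1% against 28.5%.

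**Figure D1:**
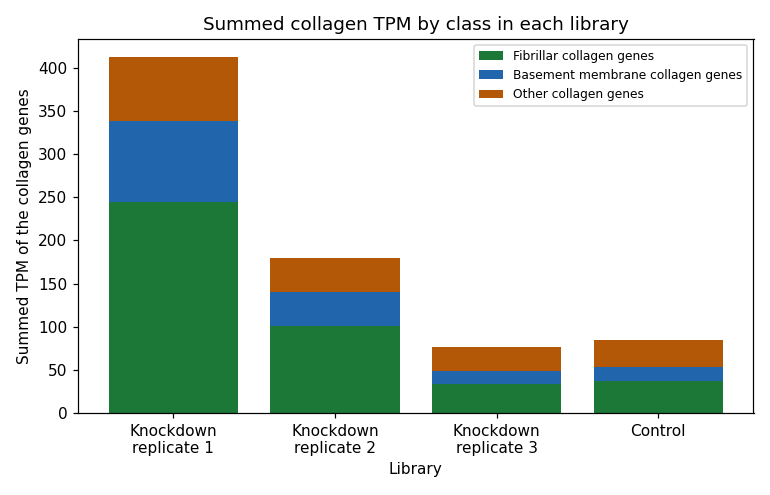
Summed TPM of the 44 collagen genes in each library, with bars stacked by class. Knockdown replicate 1 reaches 413 TPM and replicate 2 180 TPM, while replicate 3 at 77.1 TPM stands close to the control at 85.2 TPM.

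Among fibrillar genes Col3a1, the single chain of type III collagen, was the most abundant collagen gene in each of the 4 libraries, at 124, 57.3 and 20.7 TPM in knockdown tumours 1 to 3, against 21.5 TPM in the control. Col1a2, the alpha 2 chain of type I collagen, was at 60.5, 21.9 and 6.58 TPM against 8.13 TPM. Col1a1, its alpha 1 chain, was at 25.2, 10.1 and 2.56 TPM against 2.85 TPM. The knockdown tumours averaged 67.4 ± 52.5 TPM for Col3a1, 29.7 ± 27.8 TPM for Col1a2 and 12.6 ± 11.5 TPM for Col1a1 (SD, n = 3). In these genes replicates 1 and 2 lay above the control and replicate 3 below it, so the knockdown libraries stood on both sides of the control. With counts scaled by TMM factors, the gap of replicate 3 to the control was beyond counting error for Col1a2. It was only just beyond it for Col3a1 and within it for Col1a1. The ratio of scaled counts of replicate 3 over the control was 0.786 for Col1a2 with an exact 95% interval from 0.702 to 0.878, 0.936 for Col3a1 with an interval from 0.879 to 0.997, and 0.873 for Col1a1 with an interval from 0.734 to 1.04. For replicate 1 over the control the same ratio was 3.93 for Col3a1 with an interval from 3.74 to 4.12. These intervals cover counting error only and take the scaling factors as exact. On TPM, which lacks those factors, Col3a1 in replicate 3 was 0.965 of the control, so its place outside counting error depends on the scaling.

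Type V collagen, which is built into type I fibrils and limits their width, had the same arrangement of libraries. Col5a2 was at 23.1, 7.93 and 2.14 TPM in knockdown tumours 1 to 3, against 2.35 TPM in the control. Col5a1 was at 6.73, 2.51 and 1.10 TPM against 1.14 TPM, and Col5a3 at 2.62, 0.89 and 0.25 TPM against 0.29 TPM. For all 3 type V genes the value of replicate 3 lay just under that of the control. Of the minor fibrillar genes, Col11a2, a chain of type XI collagen known from cartilage, was at 0.34, 0.16 and 0.11 TPM against 0.06 TPM, on 6 counts in the control. It was the 1 fibrillar gene whose knockdown libraries all lay above the control, an arrangement held on TPM by 43.6% of all genes tested. Col27a1 and Col24a1 stayed at or below 1.36 TPM and 0.27 TPM in every library, and Col2a1 and Col11a1, chains of cartilage collagens, had at most 3 and 2 counts in any library.

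**Figure D2:**
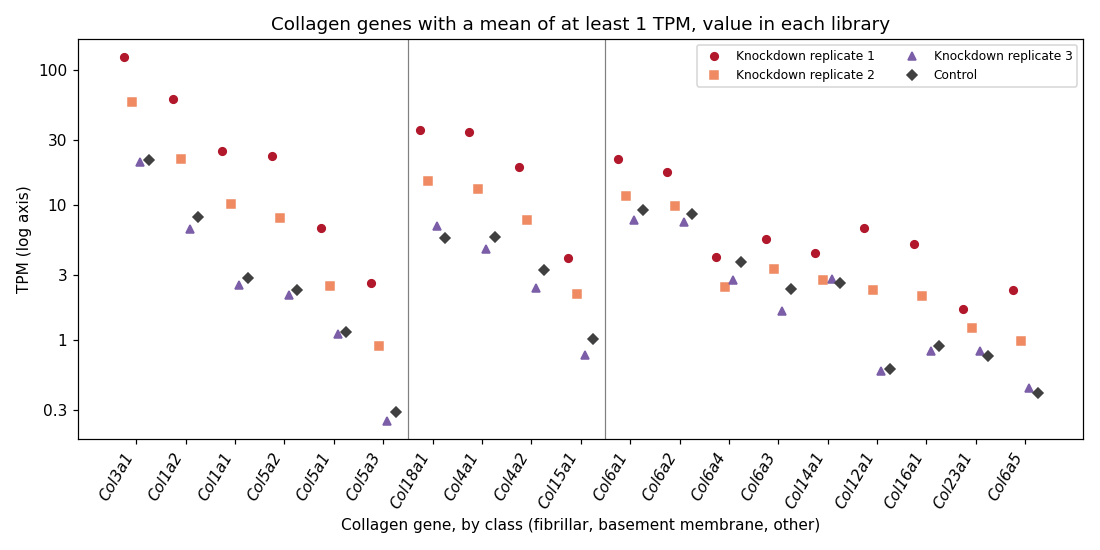
TPM on a log axis of the 19 collagen genes with a mean of at least 1 TPM over the libraries, with 1 marker for each library and vertical lines between the classes. In the fibrillar class the markers of knockdown replicate 3 and the control lie close together and those of replicates 1 and 2 above them, as for Col3a1 at 124 and 57.3 TPM against 20.7 and 21.5 TPM.

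In the basement membrane, the common chains of type IV collagen were the leading genes together with Col18a1, which encodes the precursor of endostatin. Col4a1 was at 34.6, 13.2 and 4.73 TPM in knockdown tumours 1 to 3, against 5.79 TPM in the control, and Col4a2 at 18.9, 7.71 and 2.43 TPM against 3.29 TPM. The knockdown tumours averaged 17.5 ± 15.4 TPM for Col4a1 and 9.68 ± 8.40 TPM for Col4a2 (SD, n = 3). Both genes were above the control in replicates 1 and 2 and below it in replicate 3. Col18a1 was at 35.7, 14.97 and 6.90 TPM against 5.68 TPM, so all 3 knockdown libraries lay above the control. In replicate 3 its ratio of scaled counts over the control was 1.17 with an exact 95% interval from 1.04 to 1.32. Col18a1 overlaps the folate carrier gene Slc19a1 on the opposite strand, and no strand setting of the counting is given, so reads of the pair may not be fully separated. Slc19a1 had 296, 180 and 542 counts against 1489 in the control, which is another order of the libraries. Col15a1 was at 4.06, 2.19 and 0.77 TPM against 1.01 TPM. The chains of restricted tissues were scarce. Col4a5 was at 0.67, 0.57 and 0.39 TPM against 0.44 TPM, Col4a6 at 0.15, 0.13 and 0.22 TPM against 0.11 TPM, and Col4a3 and Col4a4 had at most 8 and 10 counts in a library.

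Type VI genes were spread over a narrower range. Col6a1 was at 21.8, 11.5 and 7.75 TPM in knockdown tumours 1 to 3, against 9.12 TPM in the control, and Col6a2 at 17.5, 9.84 and 7.49 TPM against 8.60 TPM. Means were 13.7 ± 7.27 TPM for Col6a1 and 11.6 ± 5.21 TPM for Col6a2 in the knockdown tumours (SD, n = 3). Both ran in the same order as the fibrillar genes, and replicate 1 was 2.39-fold above the control for Col6a1, against 8.83-fold for Col1a1 on TPM. Col6a3, the third chain of the classical filament, was at 5.53, 3.33 and 1.63 TPM against 2.36 TPM. The later-named chains differed from these and from each other. Col6a4 was at 4.09, 2.45 and 2.79 TPM against 3.78 TPM, whereas Col6a5 was at 2.35, 0.97 and 0.44 TPM against 0.40 TPM, and Col6a6 had 2 counts in replicate 2 and no count in the other libraries. Col6a4 and Col6a5 are neighbours on chromosome 9, 28810 bases apart in the GRCm38 annotation.

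Among the 19 collagen genes with a mean of 1 TPM or more, the ratio of replicate 1 over the control ran from 1.08 for Col6a4 to 11.03 for Col12a1. Col12a1, a fibril-associated collagen with interrupted helices, was at 6.73, 2.33 and 0.59 TPM in knockdown tumours 1 to 3, against 0.61 TPM in the control. Col16a1, of the same family, was at 5.10, 2.11 and 0.82 TPM against 0.90 TPM. Col14a1, which also binds fibril surfaces, was at 4.41, 2.79 and 2.82 TPM against 2.63 TPM, so it did not share the wide gap between replicates 1 and 3. Col22a1, a collagen of tissue junctions, had 46, 9 and 6 counts against 2 in the control. Col28a1, known from peripheral nerve, had 57, 14 and 4 counts against 2. Replicate 1 held 46 of the 61 knockdown counts of Col22a1 and 57 of the 75 of Col28a1. Col8a1, a short-chain collagen of vessel walls and other matrices, was at 1.53, 0.39 and 0.13 TPM against 0.18 TPM. Its partner Col8a2 was at 0.44, 0.47 and 0.32 TPM against 0.71 TPM. Among the 31 genes tested Col8a2 was the 1 below the control in all 3 knockdown libraries on TPM, where 15.9% of all genes tested were.

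Apart from Col23a1, with a mean of 1.12 TPM over the 4 libraries, the epithelial and membrane collagens were scarce. Col7a1, which forms the anchoring fibrils of stratified epithelium, was at 0.15, 0.31 and 0.34 TPM in knockdown tumours 1 to 3, against 0.14 TPM in the control. Col17a1, of hemidesmosomes, had between 2 and 6 counts in every library. The membrane collagens Col13a1 and Col23a1 were at 0.83, 0.97 and 0.48 TPM against 0.74 TPM and at 1.68, 1.23 and 0.83 TPM against 0.75 TPM. Col20a1 was at 0.50, 0.56 and 1.10 TPM against 0.67 TPM, with replicate 3 as the highest library, unlike the fibrillar genes. The remaining genes, Col9a1, Col9a2, Col9a3, Col10a1, Col19a1, Col25a1 and Col26a1, had at most 9 counts in a library. In all, 13 of the 44 genes were too low to be tested, with no value over 0.19 TPM, and each of the 44 had a count in at least 1 library.

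Knockdown and control were then compared by edgeR's quasi-likelihood test over the 15246 genes that passed a filter on low counts, after TMM scaling for composition, which TPM lacks. Of the 31 collagen genes tested, 0 passed an adjusted p of 0.05, where 0% of all genes tested did so. No collagen gene had an unadjusted edgeR p under 0.05, with Col8a2 lowest at 0.0836 in this model across all genes. Over all genes tested 3.63% had one, a share too small to set 31 genes apart. DESeq2 called 0 of the 31, with 1.04% of all genes called, and limma on log2 CPM, on log2(FPKM + 1) and on log2(TPM + 0.1) called 0. Fitted log2 fold changes were 1.71 ± 1.15 for Col1a1, 1.43 ± 1.11 for Col1a2 and 1.24 ± 0.88 for Col3a1 (standard errors). Each of these had an adjusted p of 0.766 by edgeR, and over the alternatives the adjusted p ranged from 0.0228 to 0.991 for Col1a1, from 0.0543 to 1.00 for Col1a2 and from 0.102 to 1.00 for Col3a1. Standard errors over the members ran from 0.323 to 1.95 on the log2 scale, and only the spread among the 3 knockdown tumours fed the error estimate.

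A log2 fold change of 1 or more was fitted for 16 of the 31 genes, where 16.6% of all genes had one, and of -1 or less for 1, Col8a2, where 5.88% had one. By direction, 27 of the 31 genes tested had a fitted level above the control and 4 below it, where 53.5% of all genes tested lay above. Under library size scaling 29 lay above, where 73.7% of all genes did, with Col13a1 and Col20a1 turning, and under RLE factors 25, with Col14a1 and Col4a5 turning. Library size scaling moved the median log2 fold change of all genes to 0.40 from 0.06 under TMM. Of the 31, 4 genes (Col11a2, Col22a1, Col24a1 and Col28a1) had under 10 counts in the control, so they entered the test through the knockdown libraries, and 23 of the other 27 lay above. The direction did not hold library by library. In 6 of the 31 genes all 3 knockdown libraries lay above the control on TMM-scaled CPM (counts scaled to library size), where 31.8% of all genes did so, and in 2 all lay below, where 27.7% did. The 6 were Col11a2, Col18a1, Col22a1, Col23a1, Col28a1 and Col6a5, and the 2 were Col6a4 and Col8a2.

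**Figure D3:**
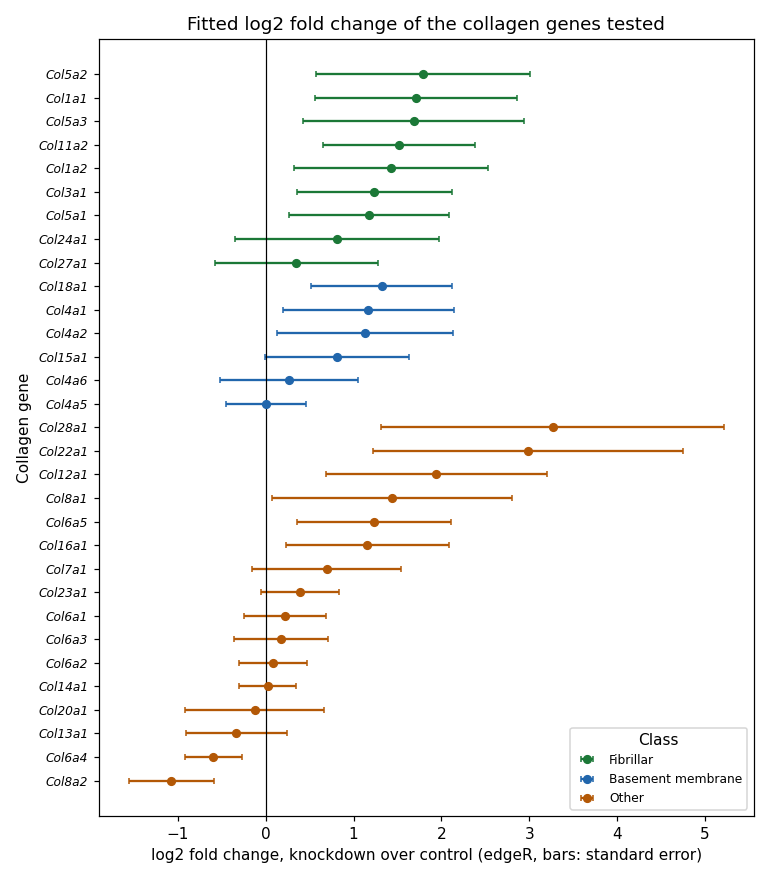
Fitted log2 fold change, knockdown over control, of the 31 collagen genes tested, with bars of 1 standard error, coloured by class. The 9 fibrillar genes lie from 0.35 to 1.79, none of the 31 passed the test, and the sign changes for Col13a1 and Col20a1 under library size scaling and for Col14a1 and Col4a5 under RLE factors.

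The class medians followed the same split. The median log2 fold change was 1.43 over 9 fibrillar genes tested, 0.97 over 6 basement membrane genes and 0.30 over 16 others, beside 0.06 over all genes tested. Without knockdown replicate 1 these medians were 0.64, 0.41 and 0.16. Among the other collagens the 5 type VI genes tested had a median of 0.17. Taken library by library, the fibrillar median over the control was 2.00 in knockdown replicate 1, 1.14 in replicate 2 and -0.19 in replicate 3, and the basement membrane median was 1.69, 0.86 and -0.27. Over all genes tested these per-library medians were 0.07, 0.04 and 0.01. In 23 of the 31 genes replicate 1 was highest, replicate 2 next and replicate 3 lowest on TMM-scaled counts, as in 39.3% of all genes tested. On TPM 24 of the 31 had this order, as in 58.4% of all genes tested.

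Leaving out 1 library moved these values. Without knockdown replicate 3 edgeR called 3 of the 31 genes, where 8.05% of all genes were called, 5.38% as higher and 2.67% as lower, and all 3 collagen genes were higher. These were Col1a1, with a log2 fold change of 2.16, Col12a1, with 2.40, and Col5a2, with 2.24, at edgeR adjusted p of 0.0228, 0.0228 and 0.0271. That fit sets replicates 1 and 2 alone against the control, and its spread comes from that pair. Without knockdown replicate 1 it called 0 of 30 genes, where 0% of all genes were called, 20 lay above the control, and the log2 fold change was 0.92 for Col1a1, 0.58 for Col1a2 and 0.41 for Col4a1. Without that replicate Col6a1, Col6a2, Col6a3, Col14a1, Col24a1, Col27a1 and Col4a5 turned to below the control in the fit, and Col20a1 turned to above it. Col13a1, Col6a4 and Col8a2 stayed below. Without replicate 2 it called 0 of 31, where 1.1% of all genes were called.

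The pairs Col1a1 with Col1a2, Col4a1 with Col4a2 and Col6a1 with Col6a2 differed less in their ratio between libraries than in their levels. The TPM ratio of Col4a1 to Col4a2 was 1.83, 1.71 and 1.95 in knockdown tumours 1 to 3, compared with 1.76 in the control, a span of 1.14-fold, while Col4a1 itself spanned 7.31-fold. For Col1a1 to Col1a2 it was 0.416, 0.461 and 0.389 against 0.351, a span of 1.31-fold where Col1a1 spanned 9.83-fold. For Col6a1 to Col6a2 it was 1.25, 1.17 and 1.03 against 1.06. The usual type I trimer holds more alpha 1 than alpha 2 chains, whereas Col1a1 was below Col1a2 on TPM in all 4 libraries. Other pairs, some of them also of 1 type, spanned a wider range. Col4a5 to Col4a6, both scarce, was 4.47, 4.38 and 1.77 against 4, and its span of 2.52-fold was above those of its chains, at 1.72-fold for Col4a5 and 2.00-fold for Col4a6. Col5a1 to Col5a2 was 0.292, 0.317 and 0.514 against 0.485, Col3a1 to Col1a1 was 4.94, 5.68 and 8.09 against 7.54, and Col8a1 to Col8a2 was 3.48, 0.830 and 0.406 against 0.254. Across types, Col6a1 to Col1a1, a pair added after the values had been seen, was 0.866, 1.14 and 3.03 against 3.20, a span of 3.69-fold. Other cross-type pairs added in the same way spanned less. Col5a2 to Col1a2 was 0.381, 0.362 and 0.325 against 0.289, a span of 1.32-fold, and Col4a1 to Col1a1 spanned 1.56-fold. These ratios are descriptions of 4 libraries, and no test was made of them.

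**Figure D4:**
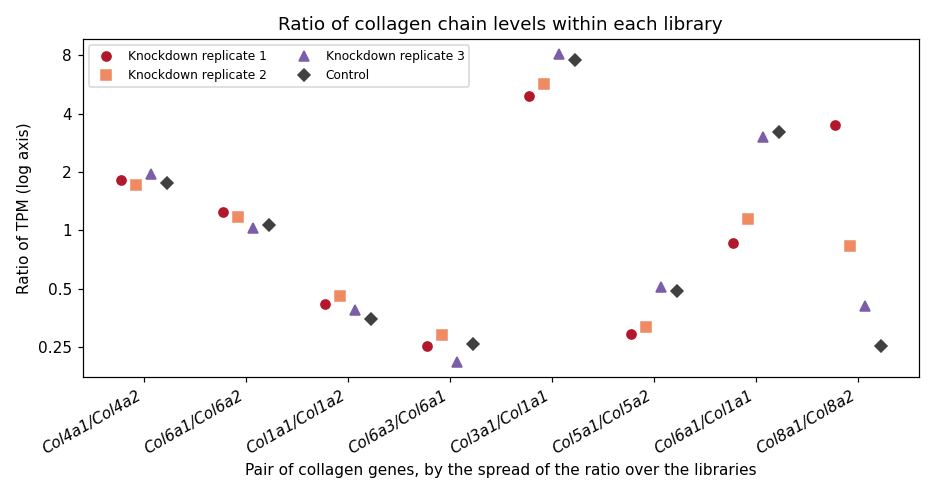
TPM ratio of a pair of collagen genes within each library, on a log axis, with pairs ordered by the spread of the ratio over the libraries. Col4a1 to Col4a2 stays between 1.71 and 1.95, while Col8a1 to Col8a2 is 3.48 in knockdown replicate 1 and 0.254 in the control.

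Genes that build and modify procollagen were examined next. Of 19 genes for hydroxylation, folding and export of procollagen, 16 had a fitted level above the control, 3 below it and 0 passed. Serpinh1, the collagen chaperone HSP47, was at 60.8, 31.2 and 16.4 TPM in knockdown tumours 1 to 3, against 14.3 TPM in the control, and Crtap, a part of the prolyl 3-hydroxylase complex, at 14.5, 6.07 and 2.43 TPM against 2.20 TPM. P3h3, of the same enzyme family, was at 4.79, 1.92 and 0.76 TPM against 0.79 TPM. P4hb, the most abundant of the list, was at 1119, 1808 and 2865 TPM against 2535 TPM, with replicate 1 lowest and replicate 3 highest. It is also a subunit of the microsomal triglyceride transfer protein of enterocytes. Of 9 propeptide processing genes tested 6 lay above and 3 below, and 0 passed. Bmp1, the procollagen C-proteinase, was at 10.7, 9.94 and 18.3 TPM against 29.2 TPM, and the brush border meprins Mep1a and Mep1b, which can also cleave procollagen, were at 101, 221 and 133 TPM against 295 TPM and at 349.7, 814 and 1073 TPM against 919.7 TPM.

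Crosslinking genes lay above the control in 6 of 7. Lox, the lysyl oxidase that starts crosslinks, was at 9.42, 2.94 and 0.44 TPM in knockdown tumours 1 to 3, against 0.29 TPM in the control, and the transglutaminase gene Tgm2 at 202, 162 and 36.4 TPM against 17.2 TPM. All knockdown libraries of these genes lay above the control. Neither passed by edgeR with all 4 libraries, each with an adjusted p of 0.766. Without replicate 3 both passed by edgeR, at 0.00569 and 0.00912. That fit called 8.05% of all genes and took its spread from replicates 1 and 2 alone. Of 18 proteoglycans and matrix proteins that sit on fibrils 17 lay above. The decorin gene Dcn was at 304, 168 and 81.4 TPM against 44.9 TPM, Postn, which encodes periostin, at 73.8, 17.2 and 2.97 TPM against 4.64 TPM, and the elastin gene Eln at 4.56, 1.95 and 0.68 TPM against 0.46 TPM. Dcn thus lay above the control in replicate 3, in which Col1a1 and Col3a1 did not. Collagen degradation genes lay above in 9 of 9 tested, with the membrane-bound collagenase Mmp14 at 65.2, 27.7 and 18.3 TPM against 12.9 TPM, the gelatinase Mmp9 at 6.27, 4.91 and 1.24 TPM against 0.67 TPM and the inhibitor Timp1 at 17.3, 6.99 and 1.54 TPM against 0.86 TPM. The medians were 1.42 for crosslinking, 1.10 for fibril-associated proteins and 1.65 for degradation, beside 0.06 over all genes, and 0 members passed with all 4 libraries. Without knockdown replicate 1 the medians were 0.88, 0.62 and 0.85.

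Laminins and the other basement membrane proteins lay above the control in 12 of 15, with a median of 0.76, or 0.41 without knockdown replicate 1. Lamb3, a laminin chain of epithelium, was at 61.6, 62.0 and 49.0 TPM in knockdown tumours 1 to 3, against 29.1 TPM in the control. All 3 knockdown libraries lay above the control, unlike for Col4a1 and Col4a2. Lama5 was at 4.13, 2.94 and 1.26 TPM against 0.98 TPM. Of 10 collagen receptors tested 6 lay above and 4 below. The collagen-binding integrin chain Itga2 was at 6.34, 5.19 and 1.77 TPM against 1.03 TPM, Mrc2, a collagen uptake receptor, at 4.18, 1.93 and 0.74 TPM against 0.52 TPM, and Itgb1 at 182, 128 and 100.4 TPM against 114 TPM. Of 13 genes of TGF-beta signalling, a known inducer of collagen transcription, 10 lay above and 3 below. Ctgf was at 11.98, 6.47 and 1.37 TPM against 1.12 TPM and Inhba at 2.86, 1.96 and 0.42 TPM against 0.32 TPM, while Tgfbi, the most abundant, was at 71.2, 99.4 and 104 TPM against 127 TPM. None of the genes named from these lists passed by edgeR with all 4 libraries.

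Markers of several other cell types summed to more in knockdown replicates 1 and 2, which had the most collagen RNA, than in the control. In replicate 3, which had less collagen RNA than the control, the fibroblast sum was still above the control. The part of these cell types in the collagen differences was not tested. The 17 fibroblast markers summed to 953, 627 and 373 TPM in knockdown tumours 1 to 3, against 284 TPM in the control, with none at 0 in any library and 15 of 17 above the control in the fit. The list shares Dcn, Lum, Fbln1 and Dpt with the fibril-associated list. In replicate 3 the gap in the sum lay mostly in Gsn, at 117 against 70.4 TPM, and Dcn, at 81.4 against 44.9 TPM. Pdgfra, Pdgfrb, Fbln1 and Gli1 lay below the control in that library on TPM, and the rest of the list above it. Pi16 was at 4.87, 2.40 and 0.33 TPM against 0.11 TPM and Mfap4 at 24.8, 9.23 and 2.23 TPM against 1.74 TPM. The 7 macrophage markers summed to 646, 313 and 151 TPM against 151 TPM, with 7 of 7 above. Cd68 was at 19.6, 13.2 and 5.23 TPM against 4.41 TPM, C1qa at 230.3, 108 and 53.3 TPM against 60.6 TPM, and C1qb was at 202, 99.3 and 45.9 TPM against 39.8 TPM. The 10 endothelial markers summed to 55.6, 30.6 and 20.0 TPM against 24.6 TPM, with 8 of 10 above. Vwf was at 2.26, 1.24 and 0.29 TPM against 0.38 TPM, Cdh5 at 3.67, 1.72 and 0.68 TPM against 0.72 TPM, and Plvap at 17.8, 10.2 and 7.56 TPM against 11.9 TPM. Smooth muscle markers summed in the same knockdown order, at 819, 512 and 329 TPM against 535 TPM, but 9 of 10 lay below the control in the fit. Myh11, the smooth muscle myosin, was at 40.3, 27.6 and 17.6 TPM against 36.9 TPM. Under library size scaling 6 of the 10 lay below and 5 of the 6 pericyte markers above. Tagln was at 237, 139 and 66.1 TPM against 103 TPM and Mylk at 36.7, 54.96 and 66.5 TPM against 68.9 TPM. The 6 pericyte markers summed to 77.1, 41.9 and 28.9 TPM against 49.2 TPM, with 3 above and 3 below, and Rgs5 was at 56.7, 29.7 and 22.1 TPM against 40.1 TPM. The 12 markers of intestinal epithelium were mixed, with 9 below the control and 3 above it in the fit. Their sum, given above, rests mostly on Apoa4, an apolipoprotein of enterocytes, at 5779.6, 11402 and 32945 TPM against 35720 TPM, on Fabp2 and on Zg16. Alpi, the intestinal alkaline phosphatase, was at 254, 685 and 1529 TPM against 2076 TPM. Car1, a carbonic anhydrase of colon epithelium, had the knockdown order of the collagens, at 1439, 418 and 4.76 TPM, and was listed at 0 in the control. It did not pass by edgeR with all 4 libraries, at an adjusted p of 0.766, and passed by DESeq2 at 0.00707. Cdx1 was at 168, 114 and 65.0 TPM against 60.2 TPM and Cdh1 at 365, 359.5 and 307 TPM against 290.0 TPM, so these also had that order on TPM. It is a common order, held on TPM by 58.4% of all genes tested.

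**Figure D5:**
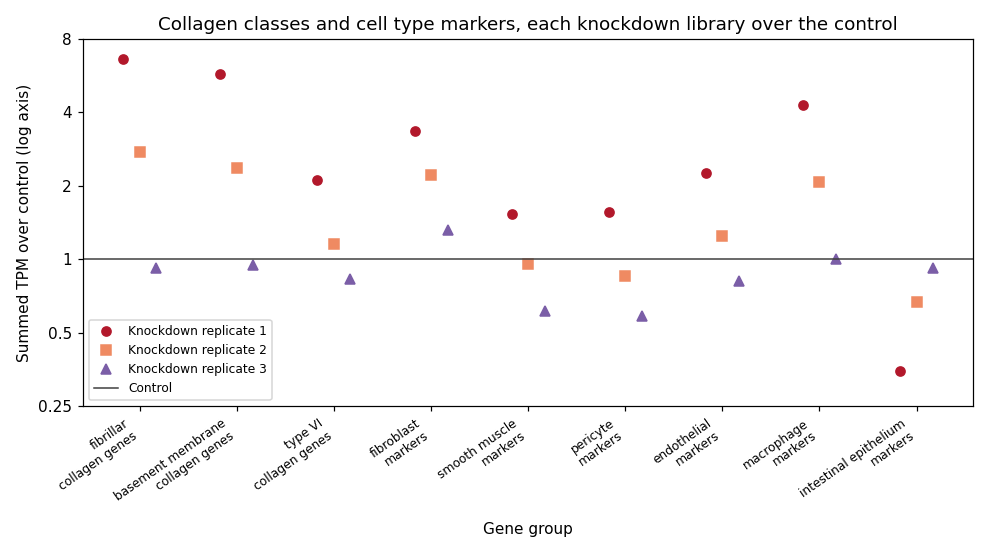
Summed TPM of collagen classes and of cell type marker lists in each knockdown library divided by that of the control, on a log axis with the control at 1. Fibrillar collagens stand at 6.64, 2.76 and 0.917 in replicates 1, 2 and 3, fibroblast markers at 3.36, 2.21 and 1.31 and intestinal epithelium at 0.348, 0.669 and 0.921.

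Markers of other tissues that make collagen were mixed in the order of the libraries. The 7 cartilage and bone markers summed to at most 0.68 TPM in a library, with 2, 4 and 4 at 0 in knockdown tumours 1 to 3, compared with 3 in the control. The cartilage collagens Col2a1 and Col11a1 were nearly without counts, while Col11a2 had 33, 17 and 12 against 6. The 8 skeletal muscle markers summed to 20.5, 26.3 and 25.9 TPM against 58.3 TPM, with Tnnt3 at 4.05, 5.20 and 5.09 TPM against 14.9 TPM. In all 3 knockdown libraries 8 of 8 lay below the control, where 15.9% of all genes tested did so on TPM and 27.7% on TMM-scaled CPM. The 6 adipocyte markers summed to 125, 148 and 247 TPM against 186 TPM, of which Cidec, which encodes a lipid droplet protein, held 59.5, 125 and 223 TPM against 179.5 TPM. Lpl, the lipoprotein lipase, was at 34.8, 13.5 and 6.29 TPM against 2.26 TPM, the knockdown order of the collagens. By edgeR it did not pass with all 4 libraries, at an adjusted p of 0.766. Without replicate 3 it passed by edgeR at 0.00626, in a fit that called 8.05% of all genes. Adipoq, which is made by adipocytes, was at 16.6, 6.62 and 10.6 TPM against 2.27 TPM. Markers of glia summed to 15.3, 17.2 and 14.2 TPM against 14.4 TPM, and those of skin to 6.43, 5.85 and 11.1 TPM against 2.44 TPM, with 4 of the 7 skin markers at 0 in the control.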

How the data were processed

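RNA-seq of 4 tumours was analysed at the gene level from a single table. For each gene and library the authors deposited an expected count (an estimate), TPM and FPKM. The deposited table also holds the authors' fold (ratio of knockdown over control) and a probability (on the scale of a p-value) of equal expression, which were not used. Bowtie 0.12.2 and the builds mm8 and mm10 stand without roles in the processing notes of the submitters. Counter, annotation and strand setting: not given in the sources used here. Columns were matched to libraries by the sample descriptions. From 5.3% to 5.89% of expected counts were not whole, and all were rounded.

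Genes were kept by filterByExpr (minimum count 10), leaving 15246 of 24444, and TMM factors were 1.30, 1.06, 0.867 and 0.844 for knockdown replicates 1, 2 and 3 and the control. Library totals are given in the report. Groups were compared with edgeR 4.0.16 (R 4.3.3) by its quasi-likelihood test, with p-values Benjamini-Hochberg adjusted over all genes tested, with a threshold of 0.05. No gene passed, 554 had an unadjusted p under 0.05, and DESeq2 1.42.0 called 159. Alternatives were RLE factors, library size alone, no filter, a filter of 50 counts, robust and older forms of the fit, limma 3.58.1 on log2 CPM (prior count 2), log2(FPKM + 1) and log2(TPM + 0.1), DESeq2, and leaving out each knockdown library. Per-library log2 differences used a pseudocount of 0.1 CPM. The fit was tested on simulated counts with known fold changes and 1 small spread for all genes. That setting does not match the wide spread between these libraries, so it checks the code and not the power here. The members, classes and 19 lists were chosen with earlier results of these data known. Values in each library were given for members with a mean of 5 TPM or more, a log2 fold change of 1 or more in size or a call in any fit, and other members were named after their values had been seen. From each list the 2 largest log2 fold changes at a mean of 1 TPM or more and the most abundant gene were taken. Of these, some marker genes are not printed (Abcc9, Acta1, Pvalb, Mbp, Krt14, Krt10, Comp), a choice made after the values had been seen. Serpinh1, Cdx1, Cdh1, Gsn, Pdgfra, Pdgfrb, Fbln1 and Gli1 were added in the same way. One further gene that the rule names is not reported here. Gene positions are of GENCODE M21 (GRCm38) and promoters of RefSeq (GRCm38.p6), not of the table.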

Additional observations from a re-analysis of the deposited data

How the results depend on the processing

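The number of collagen genes called was 0 in each of the 10 alternatives that kept all 4 libraries and ranged from 0 to 3 when a knockdown library was left out. Over all genes DESeq2 called 159, and the number ranged from 0 to 1221 when a knockdown library was left out. In those fits fewer samples were used, and the spread came from 2 knockdown libraries alone. The median log2 fold change of the other collagen genes was 0.70 under library size alone, against 0.30 under TMM. Without knockdown replicate 1 the medians were 0.64 for fibrillar, 0.41 for basement membrane and 0.16 for other collagen genes, against 1.43, 0.97 and 0.30 with all libraries. Without knockdown replicate 1 Col6a1 was at -0.11 and Col6a2 at -0.17, and over the fits with 1 knockdown library left out they ranged to 0.41 and 0.22; the cause was not tested. No paired analysis was possible because the control is a single library, whose number 3 is shared with knockdown replicate 3 alone, so the groups share fewer than 2 numbers. Collagen genes with few counts, such as Col22a1 and Col28a1 with 2 in the control, are limited by depth.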
